A study of Macaca radiata with 6 samples.

Results

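Urokinase (PLAU) and its receptor (PLAUR) were followed on 6 arrays of corpus luteum, the ovarian gland that forms from the ruptured follicle and secretes progesterone. All probe sets with PLAU or PLAUR as their single gene symbol were taken, which gave 5 of the 52865 probe sets of the array, 2 for PLAU and 3 for PLAUR. They stand for 2 of the 14132 genes so named. Both genes were chosen by their higher signal in the PGF2alpha group of these same arrays. The difference between the groups is therefore given for them as a description, with no test. Female bonnet monkeys (Macaca radiata) received prostaglandin F2-alpha (PGF2alpha), the hormone that sets off regression of the corpus luteum, as 3 intramuscular injections at 59 µg/kg body weight, or phosphate-buffered saline as vehicle. Both groups were treated on day 10 of the luteal phase and their tissue was taken 24 h later. Each group held 3 arrays, numbered 1 to 3 for PGF2alpha and 4 to 6 for vehicle. The labels give neither the animals' ages nor which animal gave which array, so the spread between arrays may be partly technical. The array was designed on the rhesus macaque, a related species, and the whole gland was used, so fewer cells of a type and less RNA per cell cannot be told apart.

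Urokinase is a secreted serine protease that cuts plasminogen into plasmin, which in turn dissolves fibrin, degrades matrix glycoproteins and activates other secreted proteases and growth factors. Its receptor is held in the outer membrane by a lipid anchor, concentrates urokinase on the cell surface and, having no part inside the cell, signals through integrins and other membrane partners. Monocytes, macrophages and neutrophils are known to carry much of the receptor. In the ovary the system is known from work on rupture of the follicle and on remodelling of luteal tissue.

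Signals are linear, in arbitrary units, as the authors deposited them. The median signal of an array lay between 114.9 and 134.0, and these medians serve below as a rough mark of a low signal, since no detection calls were used. Vehicle arrays read the luteal markers brightly, with a summed signal over 6 steroidogenic genes of 120709 to 155365, against 62282 to 111423 on PGF2alpha arrays. The ratio of 3-prime to 5-prime beta-actin signal, a measure of RNA integrity, was 1.73 to 1.78 on PGF2alpha arrays and 1.49 to 2.25 on vehicle arrays, so the groups overlapped. The arrays were processed in 2 hybridisation runs by their time stamps. PGF2alpha replicate 2 and vehicle replicate 4 made up run 2, and the other 4 arrays made up run 1.

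The protease PLAU read brighter after PGF2alpha in both of its probe sets. MmuSTS.4222.1.S1_at read 2175, 3660 and 3487 on PGF2alpha replicates 1 to 3. On vehicle replicates 4 to 6 it read 808.6, 1191 and 1076. The lowest PGF2alpha array was 1.83 times the highest vehicle array, so the groups did not overlap, as was also true, with PGF2alpha higher, of 13% of all 26944 tested probe sets. Means were 3107 ± 812 after PGF2alpha and 1025 ± 196 after vehicle (SD, n = 3 each), a ratio of 3.03. On the log2(signal + 40) scale, which understates changes of low signals, the difference was 1.54.

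The other PLAU probe set, MmugDNA.21322.1.S1_at, read 692.5, 1128 and 1107 on PGF2alpha replicates 1 to 3. Vehicle replicates 4 to 6 gave 101.7, 414.8 and 382.5. Here too the groups did not overlap, and vehicle replicate 4 stood apart from the other two vehicle arrays as the only reading below the median of its array. Means were 976.1 ± 246 after PGF2alpha and 299.7 ± 172 after vehicle (SD, n = 3 each), with a log2 difference of 1.72. That single low array weighs on the size of the difference, which was 1.18 without vehicle replicate 4.

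The receptor PLAUR read brighter after PGF2alpha in 2 of its 3 probe sets. MmuSTS.2244.1.S1_at read 1844, 3189 and 1460 on PGF2alpha replicates 1 to 3. Its vehicle readings were 613.9, 404.4 and 425.4 on replicates 4 to 6. The lowest PGF2alpha array was 2.38 times the highest vehicle array. Means were 2164 ± 908 after PGF2alpha and 481.2 ± 115 after vehicle (SD, n = 3 each), a ratio of 4.5 and a log2 difference of 2.02.

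MmugDNA.17331.1.S1_s_at, a PLAUR probe set of the kind that can also bind related transcripts, gave 1849, 2782 and 1205 on PGF2alpha replicates 1 to 3. On vehicle replicates 4 to 6 it gave 408.4, 227.1 and 279.9. Again the groups did not overlap, and PGF2alpha replicate 2 was the highest of the 6 arrays. Means were 1946 ± 793 after PGF2alpha and 305.1 ± 93.2 after vehicle (SD, n = 3 each), a ratio of 6.38 and a log2 difference of 2.48.

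The last PLAUR probe set ran the other way. MmugDNA.32468.1.S1_at read 87.5, 15.1 and 17.9 on PGF2alpha replicates 1 to 3, below the median of each array. Vehicle replicates 4 to 6 read 235.1, 247.2 and 96.0, and the first 2 of these were the only readings of this probe set above an array median. PGF2alpha arrays were all lower, but the gap was narrow, with the lowest vehicle array only 1.1 times the highest PGF2alpha array. Without any filter on brightness, 10.2% of the 52766 probe sets of the array showed such a gap in this direction. The log2 difference was -1.57, and with such dim readings its size depends on the constant added before the logarithm, being -0.81 with 160 in place of 40. This probe set did not reach the brightness filter of the test across all probe sets, which the other 4 members passed. The files give neither the part of the transcript that it reads nor its sequence, so PLAUR is described below by the first 2 probe sets with this exception.

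**Figure D1:**
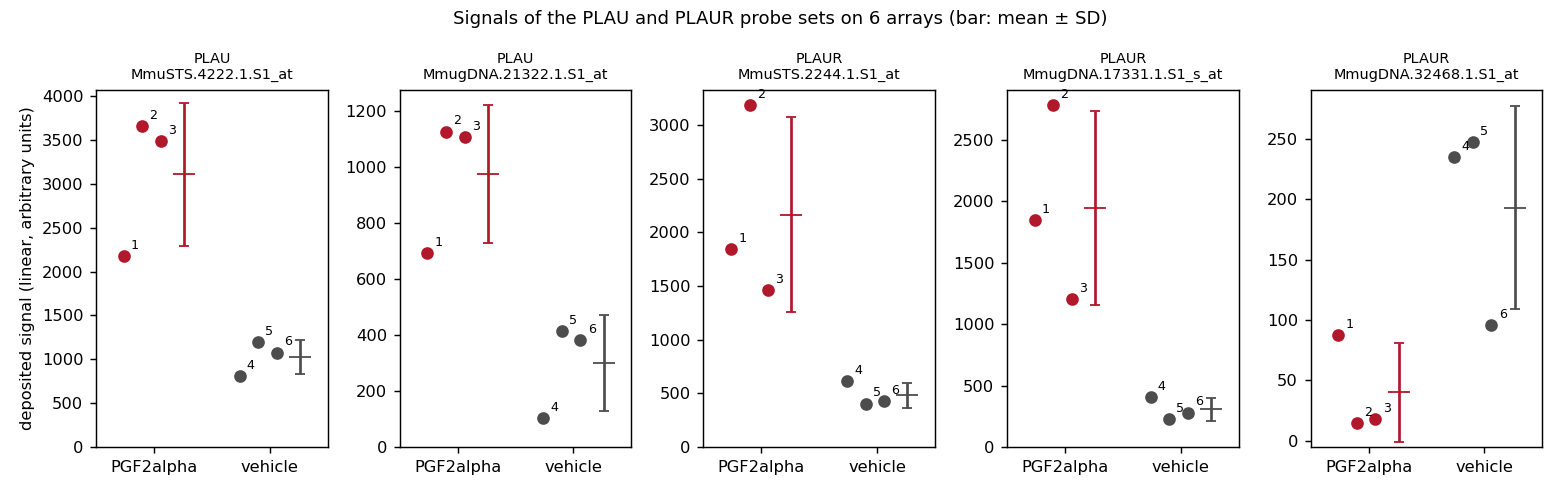
Deposited signal (linear, arbitrary units) of each PLAU and PLAUR probe set, with 1 point per array labelled by its replicate number and a bar for the mean ± SD of 3 arrays, PGF2alpha in red and vehicle in grey. Both PLAU probe sets and PLAUR probe sets MmuSTS.2244.1.S1_at and MmugDNA.17331.1.S1_s_at are higher on every PGF2alpha array, while MmugDNA.32468.1.S1_at is lower on every PGF2alpha array.

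Within each group the protease and the receptor did not order the arrays alike. Both PLAU probe sets were highest on PGF2alpha replicate 2, close behind on replicate 3 and lowest on replicate 1. The first 2 PLAUR probe sets were also highest on replicate 2 but lowest on replicate 3. Among vehicle arrays the orders were opposite. Both PLAU probe sets were highest on replicate 5 and lowest on replicate 4, and the first 2 PLAUR probe sets were highest on replicate 4 and lowest on replicate 5. The 2 PLAU probe sets thus shared 1 order of arrays in each group, and the first 2 PLAUR probe sets shared another. The last PLAUR probe set, MmugDNA.32468.1.S1_at, did not share it. That probe set was highest on PGF2alpha replicate 1 and lowest on replicate 2, and highest on vehicle replicate 5 and lowest on replicate 6. With 3 arrays a group this is a description of these arrays only. PGF2alpha replicate 2 and vehicle replicate 4, on which the first 2 PLAUR probe sets were highest, were also the arrays of run 2. An effect of the run on these orders therefore cannot be told apart from other differences between arrays.

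The size of the difference can be read array by array against the vehicle mean of the same probe set. For PLAU (MmuSTS.4222.1.S1_at) PGF2alpha replicates 1 to 3 stood 1.07, 1.81 and 1.75 above it on the log2 scale. For PLAUR (MmuSTS.2244.1.S1_at) the same arrays stood 1.88, 2.65 and 1.55 above it. On replicates 1 and 2 the receptor was farther from its vehicle mean than the protease was, and on replicate 3 the protease was. Run 2 gave the larger differences, with 2.12 for PLAU and 2.30 for PLAUR, against 1.25 and 1.89 within run 1. Each run 2 value sets a single PGF2alpha array against a single vehicle array and cannot be given an error.

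**Figure D2:**
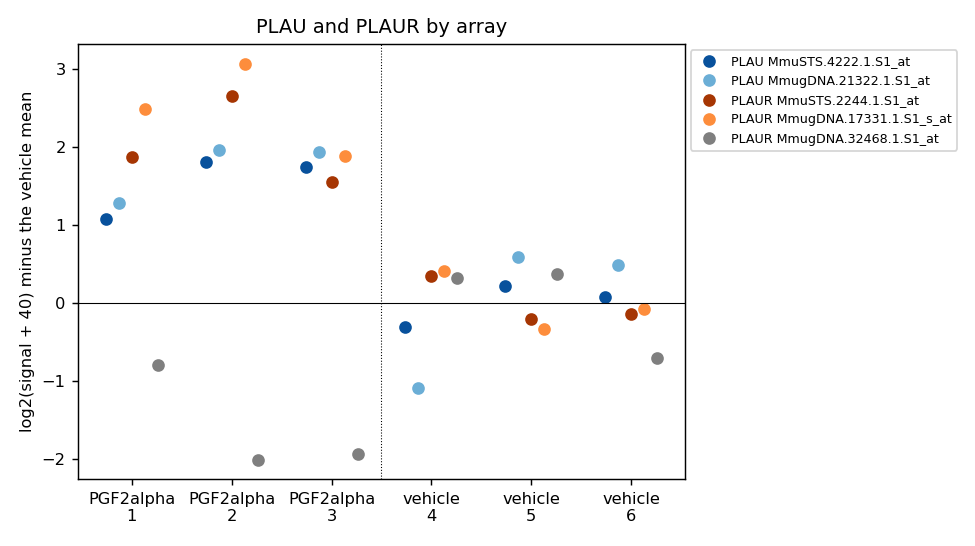
Each PLAU and PLAUR probe set on each array (x axis), as log2(signal + 40) minus the vehicle mean of that probe set (y axis, log2 units). On PGF2alpha arrays the 2 PLAU probe sets lie between 1.07 and 1.96 and the first 2 PLAUR probe sets between 1.55 and 3.07, while MmugDNA.32468.1.S1_at lies at -0.79 or lower.

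Genes that work with urokinase were examined next, to show how far the rest of the plasminogen system differed with PGF2alpha. In all, 86 genes were listed by role, of which 65 had a probe set named on the array and 51 passed the brightness filter. Of those 51, 8 rose and 0 fell (limma, adjusted p below 0.05 over all 26944 tested probe sets). Over all 9978 tested genes other than PLAU and PLAUR, the 51 included, 3.79% rose and 2.33% fell. MMP1 and MMP10, 2 of the 8, reached the array medians on PGF2alpha arrays only and so entered the test through the group in which they were high. Among the 49 listed genes that reached the median in both groups, 6 rose and 0 fell, against 3.57% rising over all such genes, a comparison added after the data were seen. At an unadjusted p below 0.05, 23 of the 51 were higher and 3 lower, against 12.4% higher and 12% lower over all tested genes. Their median log2 difference was 0.34, with 36 of 51 above 0, against a median of -0.02 and 48.1% above 0 over all tested genes. Values of 5 of the listed genes (MMP1, MMP9, THBS1, VCAN and SERPINE2) were already known when the lists were drawn up. Without them, 4 of 46 rose and 0 fell, with a median of 0.32. These 4 still included MMP10, and the 6 above included MMP9, THBS1 and VCAN. Of the genes called, only ANXA2, CAV1 and ITGB2 were outside those 5 and reached the median in both groups. The count of 8 fell to 2 without PGF2alpha replicate 1 and to 2 without PGF2alpha replicate 2, and it was 5 without vehicle replicate 5 and 5 without vehicle replicate 6.

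The substrate and the other activators of the pathway were dim or unnamed. Plasminogen (PLG), the substrate that urokinase cuts and a product mainly of the liver, had 4 probe sets, none of which passed the filter. Its brightest, MmugDNA.5388.1.S1_at, averaged 48.7 ± 27.8 after PGF2alpha and 74.6 ± 42.1 after vehicle (SD, n = 3 each), below the median of every array. Tissue-type plasminogen activator (PLAT) is not analysed here, nor are the plasmin inhibitor SERPINF2, the clearance receptor LRP1 or the integrin chain ITGA5, since no probe set carries their symbol alone.

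Cell-surface receptors of plasminogen differed among themselves. Annexin A2 (ANXA2), which with S100A10 forms a docking complex for plasminogen, read 45300, 41130 and 41100 on PGF2alpha replicates 1 to 3 and 24760, 23230 and 28700 on vehicle replicates 4 to 6. It rose by 0.74 on the log2 scale (SE 0.12, adjusted p = 0.0136), higher on 3 of 3 arrays. Its probe set can also bind related transcripts, and the gene's other probe set was dim in both groups. The call was lost without PGF2alpha replicate 1 (adjusted p = 0.0648) or replicate 2 (adjusted p = 0.0619), without the filter (adjusted p = 0.0755) and without a variance trend (adjusted p = 0.0553). S100A10, its partner, averaged 23270 ± 1300 after PGF2alpha and 15470 ± 2810 after vehicle (SD, n = 3 each), and its difference of 0.60 missed the threshold (limma adjusted p = 0.0551). It passed with quantile normalization (adjusted p = 0.0488), with the filter at the 70th percentile (adjusted p = 0.045) and with robust estimation (adjusted p = 0.0496). The glycolytic enzyme enolase ENO1, which also binds plasminogen at the cell surface, stood at 0.32 (adjusted p = 0.185). The plasminogen receptor PLGRKT stood at -0.75 (adjusted p = 0.227), with overlapping groups.

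Of 5 tested inhibitors of plasminogen activators and plasmin, 0 passed the limma test, and at an unadjusted p below 0.05, 2 were higher and 1 lower, with 12.4% and 12% over all tested genes. The largest difference was in SERPINA5, the protein C inhibitor, which also inhibits urokinase. Its brighter probe set read 787.8, 1013 and 2644 on PGF2alpha replicates 1 to 3 and 5137, 3704 and 2922 on vehicle replicates 4 to 6. The groups did not overlap, though PGF2alpha replicate 3 lay close to vehicle replicate 6. The log2 difference was -1.54 (SE 0.396, adjusted p = 0.0584), and it passed without PGF2alpha replicate 3 (adjusted p = 0.00315) and with arrays weighted by their quality (adjusted p = 0.0425). SERPINE2, protease nexin-1, an inhibitor of thrombin and urokinase, stood at 0.33 (adjusted p = 0.233).

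SERPINB2, plasminogen activator inhibitor 2, which is made by monocytes and macrophages among other cells, had 1 probe set and did not reach the filter. It read 178.9, 749 and 101.7 on PGF2alpha replicates 1 to 3, against 43.4, 41.7 and 28.9 on vehicle replicates 4 to 6. PGF2alpha replicate 2 stood far above the other 2 PGF2alpha arrays, and all vehicle readings were below the array medians. The mean of 343.2 ± 354 (SD, n = 3) after PGF2alpha rests mostly on that array.

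Membrane partners of the receptor gave 2 rises and 0 falls among 12 tested, with a median of 0.25. Over all tested genes 3.79% rose and 2.33% fell. The beta-2 integrin chain ITGB2, a leukocyte surface protein that associates with PLAUR on myeloid cells, read 1309, 2792 and 1008 on PGF2alpha replicates 1 to 3, against 700.6, 335.7 and 563.8 on vehicle replicates 4 to 6. It rose by 1.53 (SE 0.369, adjusted p = 0.0491). It ordered the arrays within each group as PLAUR did, with replicate 2 highest and 3 lowest after PGF2alpha and replicate 4 highest and 5 lowest after vehicle. The call of ITGB2 was lost under 12 of 18 alternatives with a test, and over all 18 the adjusted p ranged between 0.0136 and 0.124. Leaving out PGF2alpha replicate 3 kept it (adjusted p = 0.0251), and leaving out any other single array lost it (adjusted p = 0.0701 to 0.124). ITGAM, the alpha chain that pairs with ITGB2 in the complement receptor Mac-1, was dim and stood at -0.12 (adjusted p = 0.86). Caveolin-1 (CAV1), the coat protein of membrane pits, averaged 9719 ± 940 after PGF2alpha and 5406 ± 860 after vehicle (SD, n = 3 each). It rose by 0.85 (SE 0.151, adjusted p = 0.018), and its 2 other probe sets rose by 0.91 and 0.86. The call was lost without PGF2alpha replicate 1 (adjusted p = 0.0648) or 2 (adjusted p = 0.0845), without vehicle replicate 4 (adjusted p = 0.0595) or 5 (adjusted p = 0.0519), and without a variance trend (adjusted p = 0.0524).

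Vitronectin and its integrins did not pass. VTN, the matrix ligand of PLAUR, stood at -0.43 (adjusted p = 0.32). The chain ITGAV stood at -0.64 (adjusted p = 0.123), with all PGF2alpha arrays lower, and ITGB3 at 0.56 (adjusted p = 0.369).

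Of 15 tested plasmin substrates and proteases that plasmin activates, 5 rose and 0 fell, with a median of 0.65. The shares over all tested genes were 3.79% rising and 2.33% falling. In 4 of the 5 the rise was known when the list was drawn up. Without these 4 genes the list held 1 call among 11 tested, that of MMP10, with a median of 0.31. Stromelysin-2 (MMP10), a secreted protease of the plasmin cascade, read 357.4, 880.5 and 157.8 on PGF2alpha replicates 1 to 3, against 28.2, 26.4 and 39.3 on vehicle replicates 4 to 6. Its difference was 2.55 on the log2 scale, a size that is uncertain because vehicle readings were all below the array medians. Since it passed the brightness filter only through the PGF2alpha arrays, it had to differ, and its p is not given. The order of the PGF2alpha arrays was again 2, 1, 3. Its dim vehicle readings were highest on replicate 6 and lowest on replicate 5, an order that PLAUR did not show. The other 4 that rose were MMP1 (interstitial collagenase), MMP9 (gelatinase B), THBS1 (thrombospondin-1) and VCAN (versican), those of known rise. MMP1, like MMP10, passed the filter only through the PGF2alpha arrays. With each array left out in turn, the call of MMP9 was kept. THBS1 had an adjusted p of 0.0566 on omission of PGF2alpha replicate 1 and of 0.0619 on omission of replicate 2. VCAN missed it on omission of PGF2alpha replicate 1 (adjusted p = 0.0933) and of PGF2alpha replicate 2 (adjusted p = 0.107). Omission of vehicle replicate 6 gave VCAN an adjusted p of 0.0521. Transforming growth factor beta-1 (TGFB1), whose latent form plasmin can activate, stood at 0.20 (adjusted p = 0.636), and HGF, a growth factor that urokinase can cleave, was below the filter.

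Among 14 tested genes listed as transcription factors of the urokinase promoter, 0 passed the limma test, and at an unadjusted p below 0.05, 4 were higher and 0 lower (12.4% and 12% over all tested genes). Their median was 0.23. JUNB, a subunit of the AP-1 factor chosen here after its values were seen, was nearest to the threshold, at 0.78 (adjusted p = 0.065) and higher on all PGF2alpha arrays.

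**Figure D3:**
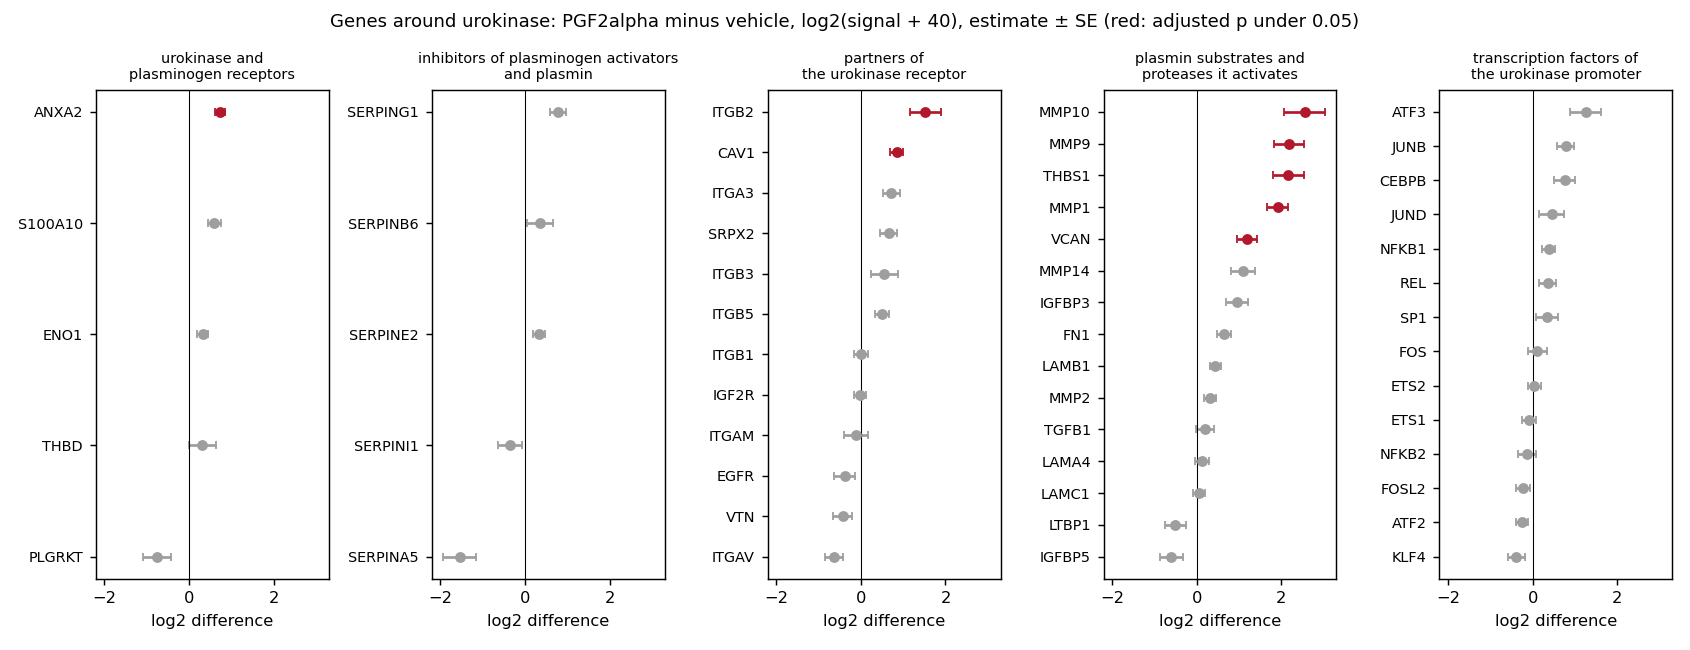
Difference between PGF2alpha and vehicle on the log2(signal + 40) scale (x axis, PGF2alpha minus vehicle) for the 51 tested genes around urokinase, by role, as estimate ± SE of the limma fit, with red for an adjusted p below 0.05. The red points are ANXA2, ITGB2, CAV1, MMP10, MMP9, THBS1, MMP1 and VCAN, and all lie right of 0, while SERPINA5 is farthest to the left at -1.54. MMP10 and MMP1 passed the brightness filter only through the PGF2alpha arrays, so they had to differ and their red marks are no test of a rise.

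The genes whose profile over the 6 arrays was most like each member were found from the root mean square difference between log2 profiles, each centred on its own mean. Both groups enter this measure, so a similar difference with PGF2alpha counts as likeness. For PLAU the nearest of 9979 genes were DKK1, a secreted Wnt antagonist (0.21), LIMS1, an adaptor at integrin adhesions (0.22), CA4, a membrane-bound carbonic anhydrase (0.22), GSTA1, a glutathione transferase (0.22), and HES2, a transcriptional repressor (0.22), against a median of 0.86 over all genes. DKK1 and CA4 were below the median on every vehicle array and were among the tested genes only through the PGF2alpha arrays. LIMS1 averaged 3012 ± 201 after PGF2alpha and 1105 ± 311 after vehicle (SD, n = 3 each). The probe set of GSTA1 can also bind related transcripts.

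For PLAUR the nearest were SUCNR1, the succinate receptor (0.09), TGFBI, a matrix protein that binds integrins (0.13), CCR2, the receptor for the chemokine CCL2 on monocytes (0.18), HPS3, a subunit of a complex of organelle biogenesis (0.18), and APBB1IP, an adaptor in integrin activation of leukocytes (0.20), against a median of 1.11. TGFBI averaged 5682 ± 2130 after PGF2alpha and 1140 ± 326 after vehicle (SD, n = 3 each). CCR2 averaged 208.3 ± 127 after PGF2alpha and 12.2 ± 4.36 after vehicle (SD, n = 3 each), and it too was among the tested genes only through the PGF2alpha arrays. The members were not each other's nearest genes. Their distance was 0.53, which put PLAUR at rank 388 for PLAU, and PLAU at rank 149 for PLAUR. Of the 5 nearest genes, 4 for each member were kept with a constant of 10 and 3 with a constant of 160.

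Among the marker lists of cell types, those of macrophages and monocytes and of neutrophils had higher sums on all PGF2alpha arrays. Both members were chosen as higher after PGF2alpha, so any list higher in that group would go with them. The summed signal of 15 macrophage and monocyte markers was 53154, 86912 and 58917 on PGF2alpha replicates 1 to 3, against 36343, 21455 and 32649 on vehicle replicates 4 to 6. The sum rests largely on LYZ, which alone read 24760, 52130 and 28130 on PGF2alpha replicates 1 to 3. On vehicle replicates 4 to 6 LYZ read 21140, 12460 and 19950, and it did not pass the test (limma adjusted p = 0.104). In this list 10 of 15 markers were higher on every PGF2alpha array than on any vehicle array, as were 12.8% of all named genes by their brightest probe set, 0 were lower on every one, and none was below the array median throughout. Its sum ordered the PGF2alpha arrays as PLAU did and the vehicle arrays as PLAUR did. In each group this sum was highest on the array of run 2. The part of these cells in the levels of PLAU and PLAUR was not tested.

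Neutrophil markers gave a sum over 7 genes of 11314, 17314 and 5019 on PGF2alpha replicates 1 to 3, against 617, 320 and 570 on vehicle replicates 4 to 6. This sum ordered the arrays within both groups as the first 2 PLAUR probe sets did. In each group the highest array was again that of run 2, so the run cannot be told apart in this match. On PGF2alpha arrays it rests mainly on S100A8 and S100A9, while the granule genes MPO, ELANE and MMP8, and S100A12, were below the median on all 6 arrays, and 3 of the 7 markers were higher on every PGF2alpha array, beside the same 12.8% of all named genes. The part of neutrophils was likewise not tested.

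Of the other lists, luteal steroidogenic markers and ovarian surface epithelium markers had lower sums on all PGF2alpha arrays. The epithelial sums were 2712 to 3393 after PGF2alpha and 3425 to 4188 after vehicle over 6 genes. Sums of lymphocyte, endothelial, fibroblast, pericyte and smooth muscle, and red cell and platelet markers overlapped between the groups. Endothelial sums, for example, were 26511 to 37331 after PGF2alpha and 27619 to 30760 after vehicle.

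**Figure D4:**
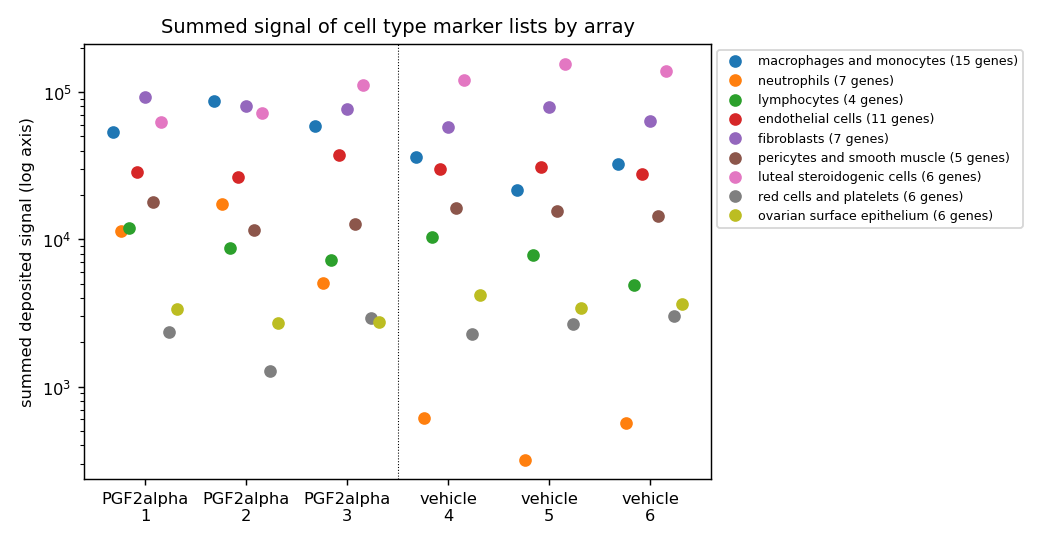
Summed deposited signal (y axis, log scale) of the brightest probe set of each marker gene, by list and array (x axis). Macrophage and neutrophil sums are higher on all 3 PGF2alpha arrays than on any vehicle array, luteal and surface epithelium sums are lower, and the other 5 lists overlap.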

How the data were processed

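The authors made linear intensities, 1 for each probe set and array, with Microarray Suite 5.0 (MAS5), per the labels. Their trimmed mean, leaving out 2% at each end, was 500 on each of the 6 arrays, so no further normalization was applied. Group and replicate came from the sample titles, and hybridisation runs from time stamps in the scanner files. Symbols came from a platform annotation that can be old, and only probe sets with 1 symbol were named (24956 of 52865, leaving out 99 controls). The sources used here hold no probe or transcript sequence, so none is given.

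Values were taken as log2(signal + 40). The test took the 26944 probe sets that reached the median of the array on 3 or more arrays. Of several tested probe sets of a gene, the one with the highest mean signal stood for it. limma 3.58.1 in R 4.3.3 (lmFit, eBayes with trend, two-sided, no covariate) was used with p-values adjusted by Benjamini-Hochberg across these probe sets. On simulated data with 200 of 26551 probe sets changed, 25% of the 2-fold changes and 72% of the 4-fold changes were recovered, and 3 of 100 calls were false. The number of arrays limits the precision.

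Named genes were all probe sets of PLAU and PLAUR, 20 genes of the pathway whatever their values, the genes past the threshold in each pathway list, and the 5 genes most like each member. The members and lists were chosen with earlier results of these data known. Alternatives were quantile and median scaling, other constants and filters, other eBayes settings, array weights, the run as a block or taken separately, fewer or combined probe sets, and each array left out.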

Additional observations from a re-analysis of the deposited data

How the results depend on the processing

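No paired analysis was possible because the groups share no replicate number. The direction of both PLAU probe sets and of the first 2 PLAUR probe sets was the same under every alternative that kept the probe set. Their groups did not overlap, so leaving out an array, splitting by run or changing the constant could not have reversed it. Those alternatives bear only on the size of the difference. The difference ranged from 1.25 (within run 1) to 2.12 (within run 2) for PLAU MmuSTS.4222.1.S1_at, and from 1.06 to 3.04 over the same runs for MmugDNA.21322.1.S1_at. Taking MmugDNA.32468.1.S1_at for PLAUR turned the sign to -1.57. Leaving out 1 array gave 1.39 to 1.78 and 1.18 to 2.02 for these PLAU probe sets. For PLAUR it gave 1.71 to 2.27 for MmuSTS.2244.1.S1_at, 2.19 to 2.78 for MmugDNA.17331.1.S1_s_at and -1.97 to -1.36 for MmugDNA.32468.1.S1_at. Genes around urokinase that rose numbered 8, and 4 without a variance trend; leaving out 1 array gave 2 to 8, and the genes that fell, 0 in the limma fit, numbered 1 with array weights and 0 to 1 with an array left out. Their median log2 difference stayed between 0.28 and 0.39 over 21 alternatives. Over all tested probe sets 815 rose and 536 fell. The counts were 533 and 293 without the filter and 440 and 229 without a variance trend, and array weights gave 848 falls. With 1 array left out they were 132 to 956 and 45 to 844. The causes were not tested. Alternatives for the genes most like each member were added after seeing the data.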
